A study of Zea mays with 18 samples.

Results

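The benzoxazinoid genes bx1 to bx5 were followed in maize roots of 3 genotypes grown at low or high nitrate. The 5 members were the rows of the identifiers Zm00001d048709 (bx1), Zm00001d048710 (bx2), Zm00001d048702 (bx3), Zm00001d048703 (bx4) and Zm00001d048705 (bx5), which is 5 of the 41632 genes in the count and FPKM tables. All 5 were present in both tables. The rule lists the genes by name and uses no measured value, but the members were chosen with earlier results of these data known. Counts of members called are therefore a description.

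The study measured root mRNA of 10-day-old seedlings after 48 h in nutrient solution with 0.15 mM (low) or 15 mM (high) nitrate. The 6 groups were B73, zmnrl1-m and ZmNRL1-OE at each nitrate level, with 3 libraries in each and 18 in all. B73 is the inbred line whose genome served as the reference build, zmnrl1-m is labelled a mutant and ZmNRL1-OE an overexpression line of ZmNRL1, the gene that the series title links to the nitrogen stress response. No label names the parent line, the insertion or the promoter of either line, so a difference from B73 cannot be told apart from a difference of genetic background. The ZmNRL1 transcript and root marker genes were not analysed here, because no table at hand pairs the identifiers of the files with their names. Total counts per library lay between 21905877 and 39003607. The labels do not say that the replicates were separate plantings, so p-values measure the spread between these libraries, which may in part be technical. In bulk RNA a lower level cannot be told apart from fewer expressing cells.

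Benzoxazinoids are indole-derived defence compounds of grasses, and their main forms in maize seedlings are stored as glucosides in leaves and roots. They act against insects and microbes, and roots release them into the soil, where they also bind iron. The first committed step is catalysed by BX1, an indole-3-glycerol phosphate lyase that makes free indole in the plastid. BX2, BX3, BX4 and BX5 are cytochrome P450 enzymes of the CYP71C subfamily that then add oxygen to indole step by step, giving the hydroxamic acid DIBOA. In the RefSeq table of the B73 assembly NAM-5.0 the genes follow each other in the order bx3, bx4, bx5, bx8, bx1, bx2, and 9 genes in all are listed from bx3 to bx2. The member identifiers, sorted by number, give the same order. That table holds none of the identifiers of the files, so coordinates on the build of the files are not given and the later pathway genes (bx6 to bx14) were not analysed here.

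The members fell into a near-silent pair and an expressed trio. FPKM, the authors' count scaled for gene length and library size, compares genes per length and is used for levels. The entry gene bx1 lay between 0 and 2.204 FPKM over the 18 libraries, with a median of 0.137 FPKM, and bx2, which encodes the first P450 step, between 0 and 0.0960 FPKM. By contrast bx3 lay between 3.14 and 39.8 FPKM, bx4 between 1.59 and 50.7 FPKM and bx5 between 1.26 and 40.7 FPKM. In read counts, bx1 had 289 and bx2 had 26 over all libraries together, against 11832 for bx3, 14830 for bx4 and 13098 for bx5. In the library where it stood highest, ZmNRL1-OE at low nitrate, bx4 ranked 2121st of the 41632 genes by FPKM, bx5 ranked 2814th and bx3 ranked 2892nd.

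**Figure D1:**
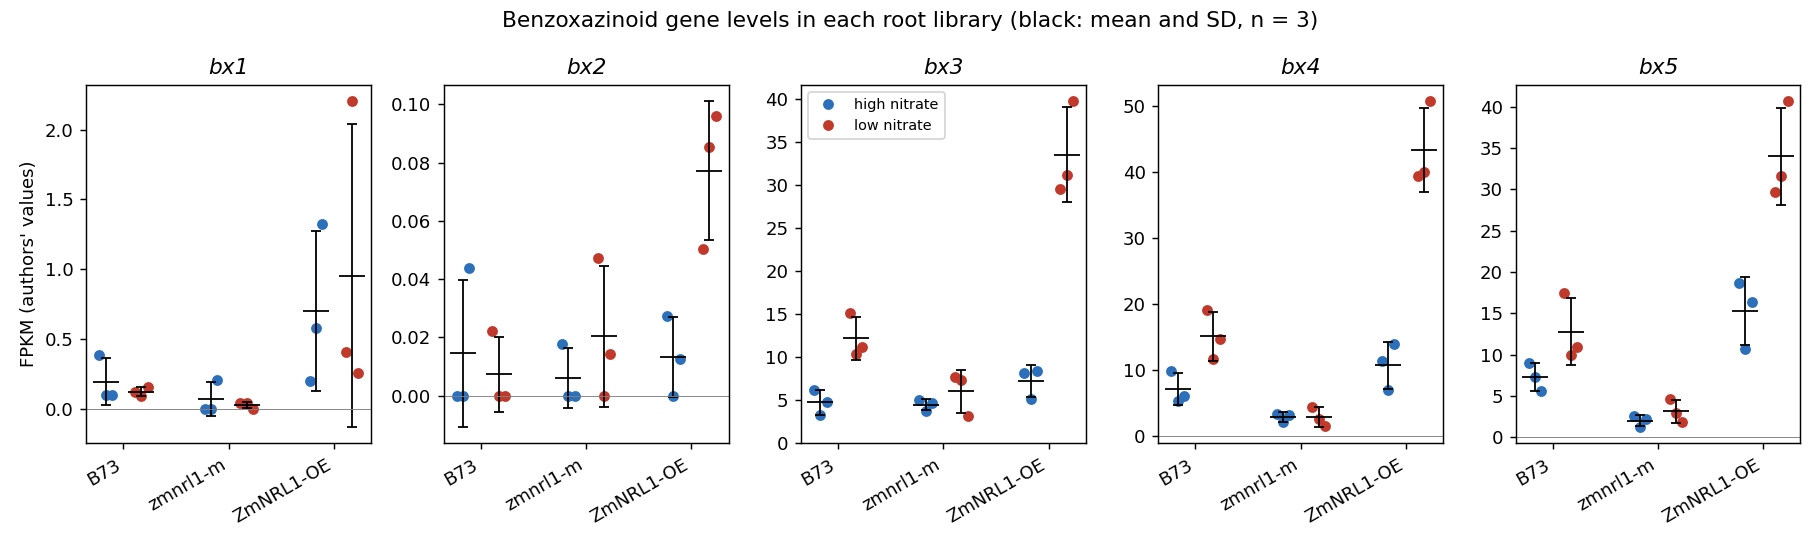
FPKM of bx1 to bx5 (vertical axes, one linear scale per gene) in each root library of the 3 genotypes at high (blue) and low (red) nitrate, with the mean and SD of each group of 3 in black. The 3 libraries of ZmNRL1-OE at low nitrate stand above all other libraries for bx3, bx4 and bx5, while bx1 does not exceed 2.204 FPKM and bx2 does not exceed 0.0960 FPKM.

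For bx1 the 6 libraries of zmnrl1-m held 11 counts together, those of B73 held 48 and those of ZmNRL1-OE held 230. In ZmNRL1-OE the 3 libraries at low nitrate had 24, 77 and 12 counts and those at high nitrate 11, 28 and 78. The B73 libraries had 4, 5 and 6 counts at low and 23, 5 and 5 at high nitrate, and the zmnrl1-m libraries 2, 2 and 0 at low and 0, 0 and 7 at high nitrate. In a library with 0 counts of bx1, the limit of 3 counts that a count of 0 allows equals 0.0571 to 0.0717 FPKM (counting error only). The spread within ZmNRL1-OE was as wide as its mean, and the nitrate levels overlapped in every genotype.

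For bx2 no library exceeded 6 counts and 8 of 18 had none, where the limit of 3 counts equals 0.0377 to 0.0671 FPKM. The highest values were in ZmNRL1-OE at low nitrate, with 4, 4 and 6 counts, and the other groups held 1 to 4 counts each over their 3 libraries. At this depth bx2 did not pass the filter on low counts and was not tested. The gene bx1 passed it with at least 10 counts in 7 libraries, of which 6 were the libraries of ZmNRL1-OE. Its higher level in ZmNRL1-OE is therefore tied to its passing, so its fitted differences between genotypes are not counted as calls. The comparisons below rest on bx3, bx4 and bx5, which had at least 77 counts in every library.

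In B73 low nitrate raised bx3 and bx4. The gene bx3, whose enzyme hydroxylates indolin-2-one, stood at 15.1, 10.4 and 11.2 FPKM at low nitrate and at 6.18, 3.31 and 4.73 FPKM at high nitrate. The groups did not overlap, and the fitted log2 fold change was 1.34 ± 0.28 (SE; edgeR adjusted p = 0.00517). The gene bx4, whose enzyme acts on the product of BX3 and widens the ring to the benzoxazine, stood at 19.1, 11.7 and 14.7 FPKM at low and at 9.87, 5.37 and 6.07 FPKM at high nitrate. Again no library overlapped, with a log2 fold change of 1.06 ± 0.31 (edgeR adjusted p = 0.0321). The gene bx5, whose enzyme makes the last hydroxylation to DIBOA, had 17.5, 9.97 and 10.9 FPKM at low and 9.04, 7.27 and 5.61 FPKM at high nitrate. It did not pass, with a log2 fold change of 0.78 ± 0.30 (edgeR adjusted p = 0.09). Its groups did not overlap, and the share of all genes apart in this way was not determined.

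Hence 2 of the 5 members were called higher at low nitrate in B73, where 9.24% of the 27134 genes tested were called higher. The call of bx4 depended on single libraries. Leaving out B73 replicate 1 or 3 at low nitrate ended it (log2 fold change 0.89 and 1.08, edgeR adjusted p = 0.0909 and 0.0758). So did leaving out replicate 2 or 3 of the B73 libraries grown at high nitrate (0.91 and 0.97, edgeR adjusted p = 0.138 and 0.095). Over its 27 alternative settings its adjusted p ran from 0.00811 to 0.138. The call of bx3 held in all 27, with an adjusted p of at most 0.0332.

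In ZmNRL1-OE low nitrate raised all of the trio. There bx3 stood at 29.6, 31.2 and 39.8 FPKM at low nitrate against 8.12, 5.13 and 8.43 FPKM at high nitrate, a 4.48-fold rise (log2 fold change 2.16 ± 0.28 SE, edgeR adjusted p = 6.75e-05). All libraries at low nitrate stood well above those at high nitrate. The gene bx4 stood at 39.3, 39.9 and 50.7 against 11.3, 6.95 and 14 FPKM, a 3.89-fold rise (log2 fold change 1.96 ± 0.31, edgeR adjusted p = 0.000421). The gene bx5 stood at 29.7, 31.6 and 40.7 against 18.7, 10.7 and 16.4 FPKM, a 2.15-fold rise (log2 fold change 1.11 ± 0.29, edgeR adjusted p = 0.0123). The groups were apart in each gene, and the bx5 call was lost without low-nitrate replicate 3 (edgeR adjusted p = 0.0571). With 3 of 5 members called higher, the background was 10.8% of the genes tested.

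In zmnrl1-m no member was called for nitrate supply, where 17.9% of the genes tested were called in either direction. The libraries at low and high nitrate overlapped for all 5 members. The gene bx3 stood at 7.64, 7.31 and 3.14 FPKM at low and at 5.01, 3.73 and 4.61 FPKM at high nitrate (log2 fold change 0.44 ± 0.29 SE, edgeR adjusted p = 0.33). The values of bx4 were 4.51, 2.68 and 1.59 FPKM at low and 3.44, 2.13 and 3.19 FPKM at high nitrate, a log2 fold change of 0.01 ± 0.35 (edgeR adjusted p = 0.998). Those of bx5 were 4.62, 2.97 and 1.88 against 2.58, 1.26 and 2.18 FPKM, a log2 fold change of 0.67 ± 0.35 (edgeR adjusted p = 0.205). Low-nitrate replicate 3 was the lowest library of its group in all 3 genes. None had an unadjusted p under 0.05, and DESeq2 and limma called 0 members as well. These p-values do not show that the levels were equal.

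Whether the nitrate responses differed between genotypes was tested as an interaction. Between ZmNRL1-OE and zmnrl1-m, the log2 response of bx3 differed by 1.72 ± 0.40 (SE; edgeR adjusted p = 0.0133) and that of bx4 by 1.95 ± 0.47 (edgeR adjusted p = 0.0151), both larger in ZmNRL1-OE, while 6.75% of the genes tested were called with a larger log2 response in ZmNRL1-OE. Both calls held in all 27 alternative settings, with adjusted p of at most 0.0369 and 0.0408. The bx5 response differed by 0.44 ± 0.45 (edgeR adjusted p = 0.537).

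The B73 response lay between the other two and differed from neither by the test. For zmnrl1-m minus B73 the differences in log2 response were -0.90 ± 0.41 for bx3, -1.05 ± 0.47 for bx4 and -0.11 ± 0.46 for bx5 (SE; edgeR adjusted p = 0.155, 0.152 and 0.919). Here 0 members were called by edgeR, DESeq2 or limma and 2 had an unadjusted p under 0.05, with 8.93% of the genes tested called. Without low-nitrate replicate 1 of zmnrl1-m, bx4 was called at -1.52 (edgeR adjusted p = 0.0459). For ZmNRL1-OE minus B73 the differences were 0.83 ± 0.39, 0.90 ± 0.43 and 0.33 ± 0.41 (edgeR adjusted p = 0.821, 0.838 and 0.974). By edgeR, DESeq2 or limma 0 members were called, 0 had an unadjusted p under 0.05, and 0.0479% of the genes tested were called.

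**Figure D2:**
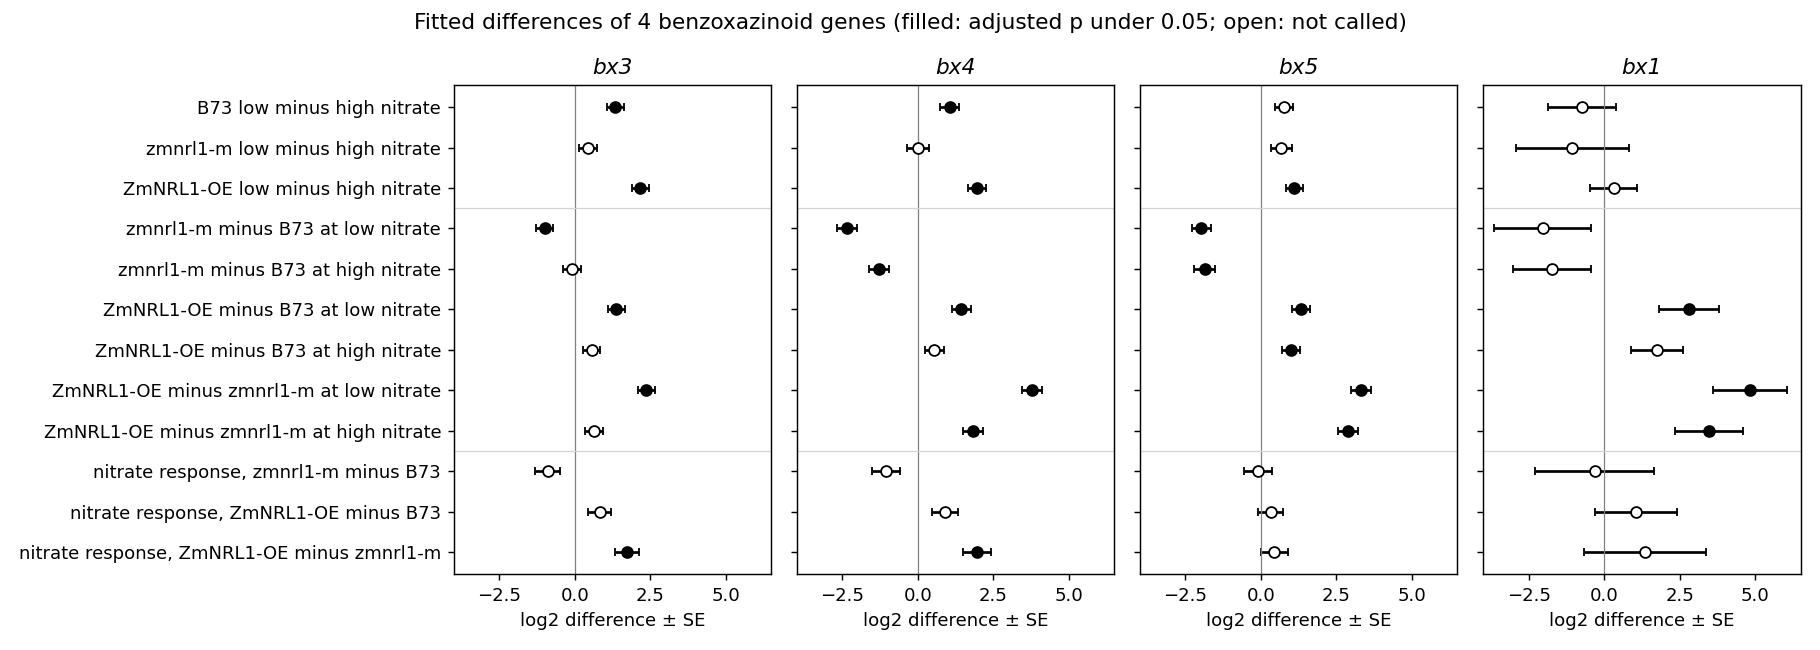
Fitted log2 differences with SE (horizontal axis, the same for each gene) of bx3, bx4, bx5 and bx1 for the 12 contrasts; the last 3 are differences between log2 nitrate responses. Filled points had an edgeR adjusted p under 0.05: bx4 is filled at -2.34 for zmnrl1-m minus B73 at low nitrate and at 1.44 for ZmNRL1-OE minus B73. The SE of bx1 is wider throughout, and its filled points are tied to its passing the filter through ZmNRL1-OE.

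At low nitrate the genotypes stood in the order ZmNRL1-OE, B73, zmnrl1-m in bx3, bx4 and bx5, without overlap between any of them. The share of all genes apart in this way was not determined, here or for the other statements on overlap. In zmnrl1-m relative to B73, bx4 was lower by 5.05-fold (5.82 ± 2.98 against 29.3 ± 6.57 CPM, mean ± SD, n = 3; CPM is the count scaled by TMM library size), with a log2 fold change of -2.34 ± 0.34 (SE; edgeR adjusted p = 3.07e-05). The gene bx5 was lower by 3.94-fold (6.04 ± 2.67 against 23.8 ± 7.08 CPM; log2 fold change -1.98 ± 0.32, edgeR adjusted p = 9.27e-05), and bx3 by 1.98-fold (11.6 ± 4.74 against 22.9 ± 4.22 CPM; -0.98 ± 0.28, edgeR adjusted p = 0.0093). That is 3 of 5 members called lower, where 22.8% of the genes tested were. All 3 calls held in each of 27 alternative settings.

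In ZmNRL1-OE relative to B73 at low nitrate the trio was higher by similar factors. The gene bx4 stood at 79.4 ± 12.02 CPM (2.72-fold, edgeR adjusted p = 0.00168), bx3 at 59.6 ± 9.96 CPM (2.60-fold, edgeR adjusted p = 0.000951) and bx5 at 60.0 ± 10.5 CPM (2.53-fold, edgeR adjusted p = 0.00211), with log2 fold changes of 1.44 ± 0.31, 1.38 ± 0.28 and 1.34 ± 0.30 (SE). Thus 3 of 5 members were called higher, where 16.1% of the genes tested were. The counts of bx1 summed to 113 in ZmNRL1-OE and 15 in B73, and 77 of the 113 came from replicate 2.

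Between the 2 lines at low nitrate the distance was 13.7-fold for bx4, 9.96-fold for bx5 and 5.15-fold for bx3, all higher in ZmNRL1-OE (edgeR adjusted p = 1.5e-07, 3.15e-07 and 3.57e-06). The log2 fold changes were 3.78 ± 0.35, 3.32 ± 0.32 and 2.37 ± 0.29 (SE). Again 3 of 5 members were called higher, where 27.3% of the genes tested were. The bx1 counts were 113 against 4. These comparisons share their libraries with those against B73.

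At high nitrate the separation of zmnrl1-m from B73 stayed in bx4 and bx5 and was not detected in bx3. The gene bx5 stood at 3.83 ± 1.27 CPM in zmnrl1-m against 13.8 ± 3.04 CPM in B73, lower by 3.65-fold (log2 fold change -1.87 ± 0.34 SE, edgeR adjusted p = 0.000281). The gene bx4 stood at 5.79 ± 1.35 against 13.9 ± 4.51 CPM, lower by 2.43-fold (log2 fold change -1.28 ± 0.34, edgeR adjusted p = 0.00593). By contrast bx3 stood at 8.54 ± 1.21 against 9.03 ± 2.60 CPM, with overlapping libraries and a log2 fold change of -0.09 ± 0.29 (edgeR adjusted p = 0.84). Thus 2 of 5 members were called lower, where 20.8% of the genes tested were.

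Against B73 at high nitrate, bx5 was called higher in ZmNRL1-OE, which is 1 of 5 members where 14.6% of the genes tested were called higher. The means of bx3 and bx4 were higher too but did not pass, and whether bx5 differed from them was not tested. Its level was 27.8 ± 7.78 CPM, 2.01-fold above B73 (log2 fold change 1.01 ± 0.30 SE, edgeR adjusted p = 0.0175), without overlap. This call ended when B73 replicate 3 at high nitrate was left out (0.86, edgeR adjusted p = 0.0745), and likewise for ZmNRL1-OE replicate 1 (0.85, edgeR adjusted p = 0.0658). The libraries overlapped for bx4, with 20.4 ± 6.75 CPM (log2 fold change 0.55 ± 0.31, edgeR adjusted p = 0.219), and for bx3, with 13.3 ± 3.42 CPM (0.56 ± 0.28, edgeR adjusted p = 0.165).

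Between ZmNRL1-OE and zmnrl1-m at high nitrate, bx5 was 7.35-fold and bx4 3.55-fold higher in ZmNRL1-OE (log2 fold changes 2.88 ± 0.34 and 1.83 ± 0.34 SE, edgeR adjusted p = 2.94e-06 and 0.00034). The bx3 difference of 0.64 ± 0.29 did not pass (edgeR adjusted p = 0.0869), and it passed without low-nitrate replicate 3 of zmnrl1-m (0.0296), without high-nitrate replicate 2 of ZmNRL1-OE (0.0346) or with only the compared groups in the model (0.0339). Hence 2 of 5 members were called higher, where 21% of the genes tested were. The bx1 counts were 117 against 7, and all 7 came from replicate 3 of zmnrl1-m.

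Over all 6 groups the order of levels was therefore not the same in the 3 genes. For bx3 it was ZmNRL1-OE low, B73 low, ZmNRL1-OE high, zmnrl1-m low, B73 high and zmnrl1-m high nitrate, and from the third group on each group overlapped the next. For bx4 ZmNRL1-OE low nitrate stood apart at the top, B73 low, ZmNRL1-OE high and B73 high nitrate followed with overlapping neighbours, and both zmnrl1-m groups lay apart below. For bx5 ZmNRL1-OE took the first 2 places, B73 the next 2 and zmnrl1-m the last 2, and only ZmNRL1-OE high overlapped with B73 low nitrate and zmnrl1-m low with zmnrl1-m high nitrate.

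The level of bx3 relative to bx4 and bx5 differed with genotype. A ratio of 2 genes within a library does not depend on how libraries are scaled. It can still depend on how reads of each line map to the B73 genome, which was not tested. Of 11 tested rows with identifiers around the members, 7 were called between zmnrl1-m and B73 at low nitrate (3 higher, 4 lower). At high nitrate 10 were called (5 of each), and the shares of all genes tested were 44.8% and 42.4%. The ratios were examined after the values had been seen. In B73 the FPKM of bx4 was 1.12 to 1.62 times that of bx3 (median 1.30, n = 6 libraries) and in ZmNRL1-OE 1.27 to 1.66 times (median 1.34), while in zmnrl1-m it was 0.367 to 0.692 times (median 0.581). Every zmnrl1-m library lay below every library of the other genotypes. The ratio of bx5 to bx3 showed a like order, with 0.960 to 2.194 in B73, 1.004 to 2.298 in ZmNRL1-OE and 0.339 to 0.605 in zmnrl1-m. The mean log2 ratio of zmnrl1-m lay below that of B73 by 1.28 for bx4 over bx3 (-0.845 against 0.44) and by 1.40 for bx5 over bx3 (-1.06 against 0.34). Each difference had an exact two-sided permutation p of 0.005, with labels exchanged within nitrate levels (400 assignments), which is the smallest p possible, and an adjusted p of 0.012 over the 12 ratio comparisons made (n = 6 per genotype). ZmNRL1-OE did not differ detectably from B73 in bx4 over bx3 (log2 difference 0.02, exact permutation p = 0.76, adjusted 0.76) or in bx5 over bx3 (0.21, exact permutation p = 0.275, adjusted 0.373). The ratio of bx5 to bx4 passed in none of the genotype comparisons, which average over the nitrate levels. The log2 differences were -0.12 for zmnrl1-m minus B73, 0.18 for ZmNRL1-OE minus B73 and 0.30 for ZmNRL1-OE minus zmnrl1-m (exact permutation adjusted p = 0.649, 0.373 and 0.373). At low nitrate zmnrl1-m lay highest, with 1.02 to 1.19 against 0.742 to 0.9155 in B73 and 0.754 to 0.803 in ZmNRL1-OE. At high nitrate it lay lowest, with 0.593 to 0.750 against 0.9156 to 1.354 and 1.171 to 1.649. Differences in this ratio at a single nitrate level were not tested.

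Of the 3 ratios, 1 passed the test between nitrate levels. The log2 ratio of bx4 to bx3 was lower at low nitrate by 0.30 (exact permutation within genotypes, 8000 assignments, p = 0.00275, adjusted 0.012). Its libraries at low and high nitrate were apart only in ZmNRL1-OE (1.331, 1.280 and 1.273 against 1.394, 1.354 and 1.661). They overlapped in B73 (1.265, 1.124 and 1.317 against 1.597, 1.621 and 1.284) and in zmnrl1-m (0.591, 0.367 and 0.506 against 0.687, 0.571 and 0.692). For bx5 over bx3 the log2 ratio was 0.46 lower at low nitrate (exact permutation p = 0.0295, adjusted 0.059), and it did not pass the adjustment. The genotypes were not alike in this ratio, since its mean in zmnrl1-m was 0.537 at low and 0.443 at high nitrate, and in B73 1.03 and 1.61. In ZmNRL1-OE the bx5 to bx3 ratio was 1.004, 1.014 and 1.022 at low and 2.298, 2.084 and 1.944 at high nitrate. The ratio of bx5 to bx4 showed no pooled difference between low and high nitrate (log2 difference -0.16, exact permutation p = 0.406, adjusted 0.487), yet its libraries were apart within both lines in opposite directions. In ZmNRL1-OE it was 0.754, 0.792 and 0.803 at low against 1.65, 1.54 and 1.17 at high nitrate, and in zmnrl1-m 1.02, 1.11 and 1.19 at low against 0.750, 0.593 and 0.686 at high nitrate. In B73 it was 0.9155, 0.8539 and 0.7421 at low against 0.9156, 1.354 and 0.924 at high nitrate. That is the direction of ZmNRL1-OE, with replicate 1 nearly equal at both levels. The opposite movement of zmnrl1-m and ZmNRL1-OE itself was not tested.

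**Figure D3:**
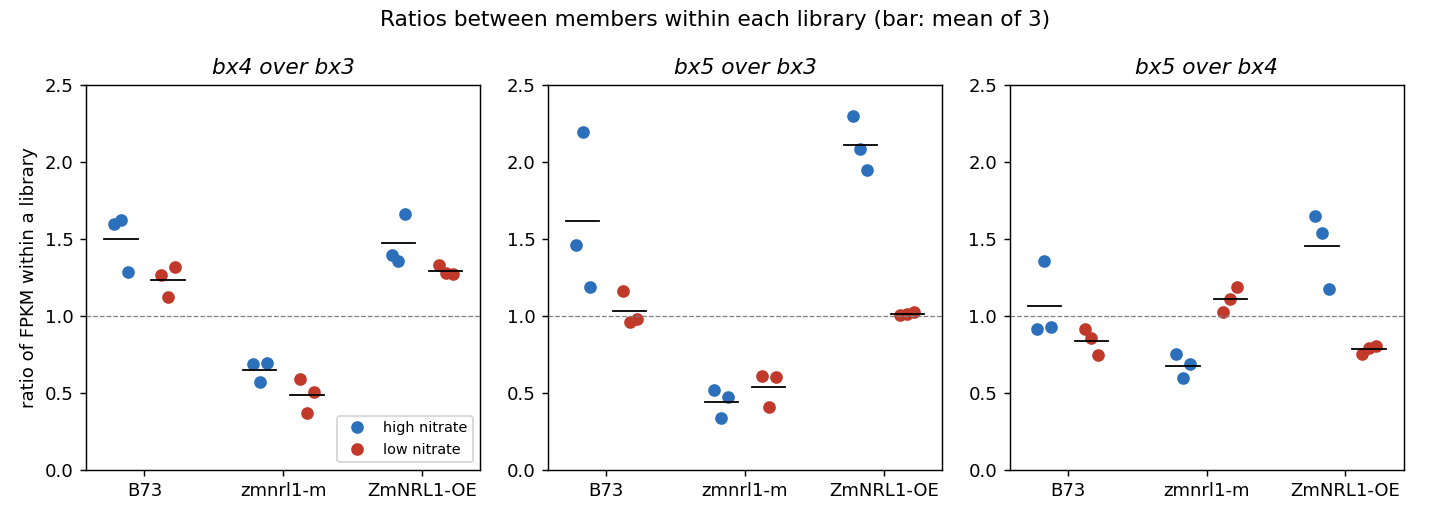
Ratios of FPKM between members within each library (vertical axis, linear from 0; dashed line at 1) by genotype and nitrate level, with the mean of each 3 libraries as a bar. All 6 zmnrl1-m libraries lie under 0.7 for both ratios to bx3, and all libraries of B73 and ZmNRL1-OE lie at 0.96 or above.

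Within groups the members of the trio often shared their highest and their lowest library. In 5 of 6 groups the same library was the highest for bx3, bx4 and bx5 by TMM-scaled CPM, and in 4 of 6 the same library was the lowest. In B73 at low nitrate, for example, replicate 1 was the highest and replicate 2 the lowest for each gene. The replicates of a group share no treatment difference in the labels, and the part of library preparation in this was not tested. How often other genes share their highest or lowest library was not determined.

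Of the 27130 other genes that passed the filter, the profile nearest to the mean of the 5 members was that of Zm00001d043786, with a root mean square difference of 0.40 in centred log2 CPM over 18 libraries, followed by Zm00001d025235 with 0.41. The members themselves lay between 0.44 (bx4) and 0.94 (bx1) from their mean. Zm00001d025235 stood at 67.1 ± 2.21 CPM in ZmNRL1-OE, 35.4 ± 4.15 in B73 and 14.01 ± 2.04 in zmnrl1-m at low nitrate, and at 43.7 ± 2.41, 25.8 ± 3.13 and 15.9 ± 0.88 CPM at high nitrate (mean ± SD, n = 3). Zm00001d043786 had the same order of genotypes at a much lower level, from 1.86 ± 0.27 CPM in ZmNRL1-OE to 0.22 ± 0.06 CPM in zmnrl1-m at low nitrate. Both were picked for this likeness, so their values are a description.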

How the data were processed

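The submitters' processing notes name HISAT2 2.2.1, featureCounts 2.0.1, bcl2fastq 2.19.1 and Trim Galore 1.18, and B73 RefGen_v4 as genome. No label states the strand or multi-mapping setting, so reads shared between related P450 genes cannot be assessed. The authors deposited raw counts and FPKM values per gene, without pooling replicates. Dividing one table by the other gave a length per gene that was constant across libraries to within 0.039% (largest coefficient of variation).

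All 18 libraries were fitted in 1 model with a mean per group (edgeR 4.0.16, glmQLFit and glmQLFTest, TMM scaling, R 4.3.3), after filterByExpr with a minimum count of 10, which left 27134 genes. P-values were adjusted by Benjamini-Hochberg over these genes, and a gene was called at an adjusted p under 0.05. The median log2 fold change of all tested genes lay between -0.03 and 0.00 in every contrast. SE is the absolute log2 fold change over the root of F. Alternatives used limma 3.58.1 on log2(FPKM + 1) or log2(FPKM + 0.1) and DESeq2 1.42.0. Replicate libraries differed beyond sampling noise in all 18 pairs (chi-square over its degrees of freedom from 7.80 to 25.6).

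The members and lists were chosen with earlier results of these data known. Besides the members, the 2 genes nearest to their mean profile were named. Same-numbered B73 libraries at low and high nitrate deviated together (r = 0.42, 0.12 and 0.26 across genes), which pairs them by the limit of 0.1. The main model has no term for this pairing. With replicate number as a block common to all 6 groups, the B73 nitrate comparison gave edgeR adjusted p = 0.00408 for bx3, 0.0118 for bx4 and 0.0528 for bx5. Such a block does not model a pairing within B73 alone. The ratio permutations between nitrate levels did not use the pairing either. No sequences or coordinates were at hand.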

Additional observations from a re-analysis of the deposited data

Results flagged for a closer look

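In 2 members the nitrate response differed between genotypes by the test of the difference itself. The log2 response to low nitrate was larger in ZmNRL1-OE than in zmnrl1-m by 1.72 for bx3 and by 1.95 for bx4. No group has more than 3 libraries, so single libraries were not screened as outliers.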

How the results depend on the processing

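The 48 log2 fold changes of bx1, bx3, bx4 and bx5 were recomputed in up to 27 alternative settings each. Of 1282 values, 1238 kept their direction and their side of the threshold, 18 lost and 5 gained the call, and 21 changed sign, none of the last in a called comparison. With 1 library left out, the number of tested members called for B73 at low against high nitrate was 1 to 2, for ZmNRL1-OE minus B73 at high nitrate 0 to 1, and for the difference in response of zmnrl1-m and B73 0 to 1. With replicate number as a block, the calls of bx3, bx4 and bx5 were the same in every contrast, and of the bx1 calls that of ZmNRL1-OE minus B73 at low nitrate was lost (2.76, edgeR adjusted p = 0.0559).

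The fit also called bx1 higher in ZmNRL1-OE, which the text does not count: 2.81 against B73 and 4.84 against zmnrl1-m at low nitrate, and 3.48 against zmnrl1-m at high nitrate (edgeR adjusted p = 0.0368, 0.00293 and 0.0207). With limma on log2(FPKM + 1) these were 0.67, 0.80 and 0.62, and the first and last no longer passed (adjusted p = 0.0727 and 0.0844). With limma on log2(FPKM + 0.1) they were 1.76, 2.57 and 2.18, and the first did not pass (0.0536). Without ZmNRL1-OE low-nitrate replicate 2 the first was 1.43 and the second 3.47 (edgeR adjusted p = 0.274 and 0.0209). The first was also lost without replicate 1, 2 or 3 of B73 at low nitrate (adjusted p from 0.0716 to 0.118). The last was lost without zmnrl1-m replicate 1 or 2 or ZmNRL1-OE replicate 3 at high nitrate (2.88, 2.78 and 2.62), and was 8.08 without zmnrl1-m replicate 3.

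Sign changes came in bx1 (11), bx3 (2), bx4 (4) and bx5 (4), and the cause was not tested. With limma on log2(FPKM + 1) and log2(FPKM + 0.1), bx4 in zmnrl1-m at low against high nitrate was -0.050 and -0.088, and the bx1 response of zmnrl1-m minus B73 was 0.028 and 0.061. With 1 library left out, the log2 nitrate response of bx4 in zmnrl1-m ran from -0.45 to 0.31, and bx3 in zmnrl1-m minus B73 at high nitrate from -0.28 to 0.14. The response difference of zmnrl1-m and B73 ran from -0.50 to 0.16 for bx5 and from -1.30 to 4.29 for bx1. The bx1 nitrate response ran from -1.04 to 0.25 in B73, from -1.74 to 3.56 in zmnrl1-m and from -1.07 to 1.20 in ZmNRL1-OE. Its response difference ran from -0.35 to 1.92 for ZmNRL1-OE minus B73 and from -3.23 to 2.25 for ZmNRL1-OE minus zmnrl1-m.

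The ratio alternatives were chosen after seeing the data. With 1 library left out, the log2 difference of ZmNRL1-OE and B73 in bx4 over bx3 ran from -0.033 to 0.051 and changed sign 3 times, and that of low and high nitrate in bx5 over bx3 ran from -0.53 to -0.38 and passed 4 times. The number of all genes called moved by more than 1.5 times in 3 of 27 settings for B73 low against high nitrate (2054 to 5106), 2 for zmnrl1-m (2915 to 5640), 4 for ZmNRL1-OE (3251 to 7218), and 9, 11 and 7 for the response differences of zmnrl1-m and B73 (546 to 4157), ZmNRL1-OE and B73 (4 to 104) and the 2 lines (1685 to 5960). Depth limits bx1 and bx2.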

Other observations

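The count table held 20 further rows with identifiers from Zm00001d048692 to Zm00001d048720, around the members, of which 3 had no counts and 11 were tested. At low against high nitrate at most 1 of the 11 was called higher and 1 lower in any genotype, where 14.7% (B73), 17.9% (zmnrl1-m) and 23.9% (ZmNRL1-OE) of all genes tested were called in either direction. Between zmnrl1-m and B73, 7 of the 11 were called at low nitrate (3 higher, 4 lower) and 10 at high nitrate (5 of each), where 44.8% and 42.4% of all genes tested were. Between ZmNRL1-OE and B73, 2 were called at low and 1 at high nitrate, where 34.8% and 27.2% of all genes tested were.

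Among them, some rows are named that were chosen after their values were seen. In zmnrl1-m minus B73, Zm00001d048712 was higher by log2 fold changes of 3.03 at low and 2.52 at high nitrate (edgeR adjusted p = 1.92e-05 and 9.48e-05). Zm00001d048696 was higher too (1.92 and 0.86, edgeR adjusted p = 6.74e-06 and 0.00724). Zm00001d048701 was lower (-1.31 and -1.42, edgeR adjusted p = 0.00521 and 0.00294). Zm00001d048692 was higher in ZmNRL1-OE than in B73 at both levels, with log2 fold changes of 1.54 at low and 1.47 at high nitrate (edgeR adjusted p = 8.11e-08 and 1.53e-07). For zmnrl1-m minus B73 they were 0.22 at low and 0.76 at high nitrate (edgeR adjusted p = 0.173 and 0.000153). Zm00001d048698 had 597 to 1188 counts per library in B73 and 660 to 1244 in ZmNRL1-OE, and 1 count over the 6 zmnrl1-m libraries. Zm00001d048707, whose number lies between those of bx5 and bx1, had 1013 to 2148 counts in zmnrl1-m, 1973 to 3363 in B73 and 2096 to 3419 in ZmNRL1-OE. Its log2 fold change at low against high nitrate was 0.01 in B73 and 0.00 in ZmNRL1-OE (edgeR adjusted p = 0.955 and 0.989), and in zmnrl1-m minus B73 it was -0.40 at low and -0.64 at high nitrate (edgeR adjusted p = 0.00332 and 6.15e-05).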
